A study of Mus musculus with 19 samples.

Results

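Nestin-expressing progenitors (NEP) and CD133-positive, lineage-negative cells (NSC) of the mouse cerebellum were compared across all measured genes, on the 4 arrays titled NEP and the 3 arrays titled NSC out of 19 arrays in the series. Arrays were chosen by their titles, and none was left out. The other 12 arrays hold Math1-positive granule neuron progenitors (GNP, 4 arrays) and tumors. All the mice carry the C57BL/6 strain label. The cells of both groups were taken straight from the cerebellum with neither culture nor treatment, and the labels give no age, sex, reporter allele, sorting gate or pooling of animals for either group. No label tells whether arrays in the same group were made from different mice, and each p-value below therefore reflects the array-to-array spread alone, which may be technical. A number in the titles, taken here as the run, is shared by the NEP and GNP arrays (first run), and another by the NSC and tumor arrays (second run). Run and group are therefore confounded, and in every NEP with NSC value below they cannot be told apart. NSC arrays are called 1, 2 and 6 here, since one title carries the number 6 and the others, which carry none, are numbered in accession order.

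Nestin is an intermediate filament protein of neural stem and progenitor cells, and CD133, encoded by Prom1, is a membrane glycoprotein used to collect stem cells. The cerebellum grows from separate germinal zones. Atoh1-positive progenitors of the external granule layer divide under Sonic hedgehog and make granule neurons, while the ventricular zone and the white matter hold Ptf1a-positive progenitors of inhibitory neurons and the cells that give rise to Bergmann glia, astrocytes and oligodendrocytes. A level below is the log2 signal of a gene's probe set, a difference is NEP minus NSC on that scale, and a gene is called at an adjusted p below 0.05 (limma, two-sided, Benjamini-Hochberg over all genes tested). Levels are compared between arrays, not between genes.

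The markers behind the labels were checked first. Nes had levels of 5.78, 5.65, 6.06 and 6.01 on the 4 NEP arrays, against 4.56, 4.34 and 4.51 on the 3 NSC arrays. The groups did not overlap, and Nes was higher in NEPs by 1.40 (SE 0.13, adjusted p = 0.000227). Prom1 stood at 8.77, 8.64, 8.17 and 8.85 in NEPs, against 7.95, 8.11 and 8.17 in NSCs, so that the gene of the marker used to collect NSCs was not lower in NEPs. Its difference of 0.53 (SE 0.17, adjusted p = 0.0392) was called, and the call was lost without NEP array 1, 2 or 4, without NSC array 1, 2 or 6, and with NEP arrays 3 and 4 only (0.44). Atoh1, also called Math1 and the fate-setting factor of granule neuron progenitors, was at 8.94, 8.92 and 8.93 on the NSC arrays, close to its mean of 8.85 on the GNP arrays. The NSC arrays thus held the defining marker of granule neuron progenitors at a high level, beside Prom1, and their label is used here as the collection rule and not as a cell type.

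Markers of other cells differed among the NEP arrays. NEP arrays 1 and 2 correlated at r = 0.995 with each other and arrays 3 and 4 at r = 0.988, against 0.940 to 0.943 across these pairs and 0.997 between NSC arrays (over the 12148 genes tested, which share the arrays and are not independent). With the NSC arrays, NEP arrays 1 and 2 correlated at 0.893 to 0.895, array 3 at 0.942 and array 4 at 0.925 to 0.927. By this measure NEP array 3 was as close to the NSC arrays as to NEP arrays 1 and 2. The median level of 21 tested microglia markers of 25 listed was 9.0, 9.22, 3.74 and 2.15 on NEP arrays 1 to 4, against 4.09, 3.74 and 3.87 on NSC arrays. None of them was called in the limma fit (0 higher and 0 lower, also at an unadjusted p below 0.05), while with NEP arrays 1 and 2 only all 21 were called higher. Csf1r, the receptor that microglia need to survive, stood at 11.16, 11.12, 7.22 and 3.51 in NEPs, against 6.75, 6.59 and 6.67 in NSCs. Microglia markers were thus far higher on NEP arrays 1 and 2 than on any NSC array, and lower on NEP array 4 than on any. Mural cell and fibroblast markers (31 tested of 32) followed the same split, with medians of 8.49, 8.45, 4.92 and 4.94 in NEPs, against 5.54, 5.80 and 6.37 in NSCs. Dcn, the fibroblast proteoglycan decorin, stood at 11.02, 10.99, 7.51 and 5.06 in NEPs, against 9.21, 9.05 and 9.20 in NSCs. Endothelial markers (19 tested of 20) had medians of 6.01, 5.84, 3.28 and 4.14 in NEPs, against 5.42, 5.44 and 5.56 in NSCs. With NEP arrays 3 and 4 only, 3 microglia, 19 mural and 16 endothelial markers were called lower than in NSCs. The log2 scale has no zero, so no marker can be said to be absent. Each gene group below is therefore also given with NEP arrays 3 and 4 only. Such a fit takes its NEP spread from within 1 close pair. It called 6189 genes, and NEP arrays 1 and 2 only called 8308, against 5749 with all 4. Counts from a pair thus do not show how firm a call is. The main fit treats the 4 NEP arrays as independent, although they fell into 2 pairs. The part of these other cells in each result was not tested further. In such bulk samples fewer cells of a type and less RNA per cell cannot be told apart.

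**Figure D1:**
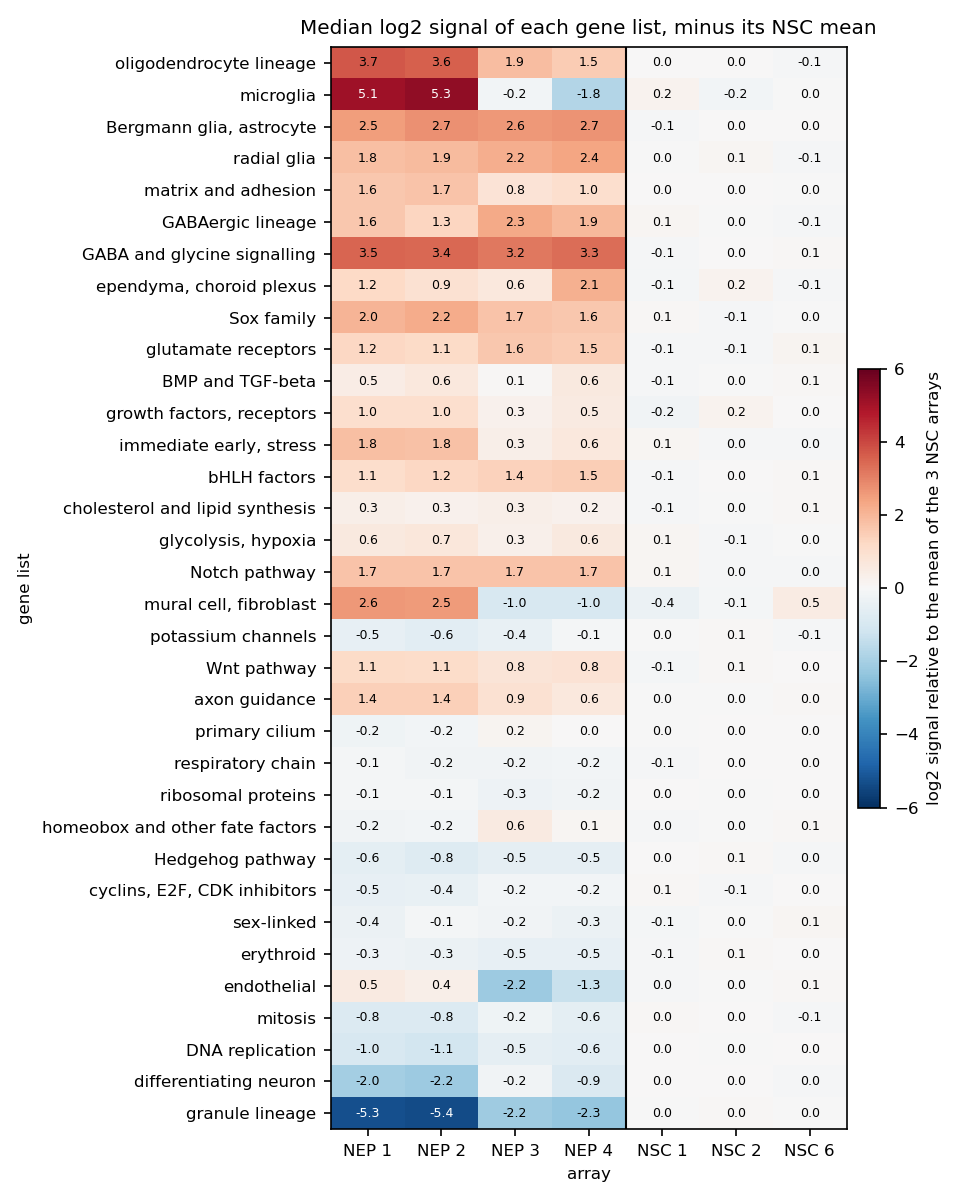
Median log2 signal of each of 34 gene lists on each array (columns, NEP arrays left of NSC arrays), minus the list's mean over the 3 NSC arrays; red is higher and blue lower. Microglia and mural lists are high on NEP arrays 1 and 2 only, while the Bergmann glia, radial glia and granule lineage lists keep 1 sign on all 4 NEP arrays.

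Of 12148 genes tested, 5749 were called (47.3%). NEPs had 3024 genes higher (24.9%) and 2725 lower (22.4%), while the difference had a median of 0.017 over the genes tested. These shares are the background for each list count below. Calls of 2-fold or more numbered 1300 upward (10.7%) and 635 downward (5.23%). Differences of 16-fold or more were called for 32 genes upward and 17 downward. With NEP arrays 3 and 4 only, 27.9% were called higher and 23.1% lower, 5072 of the 5749 calls (88.2%) were made the same way, and 0 of the 5749 had the opposite sign. These arrays and the same NSC arrays also made the 5749 calls, so much of this agreement is built in. Counts of calls were lower without an NSC array, down to 4014 without NSC array 2, which leaves 2 NSC arrays. Of 2892 called genes with several tested probe sets, 172 (5.95%) had probe sets called in both directions. The spread within NEPs was larger than within NSCs, with a median SD per gene of 0.209 in NEPs and 0.0966 in NSCs.

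**Figure D2:**
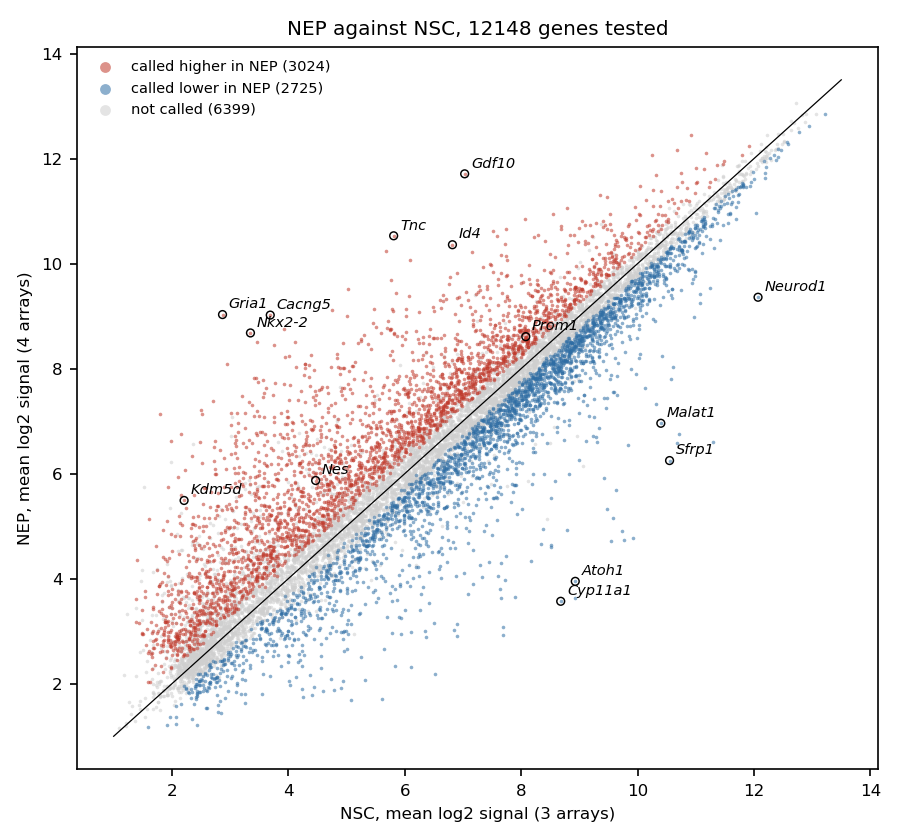
Mean log2 signal in NEPs (vertical, 4 arrays) against NSCs (horizontal, 3 arrays) for 12148 genes; red genes were called higher in NEPs (3024), blue genes lower (2725), and grey genes were not called. Gria1, Cacng5 and Nkx2-2 lie far above the line of equality, Atoh1 and Cyp11a1 far below it, and Prom1 close to it.

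The widest gap between the lowest NEP array and the highest NSC array belonged to a glutamate receptor gene. Gria1, a subunit of AMPA receptors that Bergmann glia carry as well as neurons, had levels of 8.69, 8.73, 9.12 and 9.58 in NEPs, against 2.87, 3.06 and 2.69 in NSCs. The difference was 6.16 (SE 0.23, adjusted p = 9.13e-06), or 71.3-fold. Cacng5, an auxiliary subunit of AMPA receptors, stood at 8.91, 8.78, 8.89 and 9.49 in NEPs, against 3.66, 3.60 and 3.82 in NSCs, a difference of 5.32 (SE 0.18, adjusted p = 7.55e-06). Both genes were low in NSCs, where the median of all probe sets of an array lies near their level (2.44 to 2.57 over the series), and high on each NEP array. Omg, the oligodendrocyte myelin glycoprotein, had 8.49, 8.50, 8.37 and 8.68 in NEPs, against 3.64, 3.28 and 3.5 in NSCs. Nkx2-2, a homeobox factor of the oligodendrocyte lineage, had 8.92, 8.90, 8.20 and 8.71 in NEPs, against 3.58, 3.03 and 3.44 in NSCs. Gdf10, a BMP family ligand that marks Bergmann glia, was at 11.54, 11.61, 11.66 and 12.02 in NEPs, against 7.12, 7.08 and 6.89 in NSCs. Gdf10 was far above the array median in NSCs too, where its level lay above the GNP mean of 4.00.

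The other 10 genes with the widest gaps upward were Gask1b, Col2a1, Opcml, Rlbp1, Inhbb, Pcdh20, Wif1, Tnc, Pdlim4 and Nebl. Their products include type II collagen (Col2a1), an IgLON adhesion molecule (Opcml), a retinaldehyde-binding protein (Rlbp1), an activin subunit (Inhbb), a secreted Wnt inhibitor (Wif1) and tenascin C (Tnc). Over the 15 genes the difference ran between 4.22 and 6.16, and between 4.33 and 6.48 with NEP arrays 3 and 4 only. The largest adjusted p was 1.53e-05. In NSCs, 4 of the 15 (Gask1b, Inhbb, Pcdh20 and Wif1) had a mean below the median of the arrays, so their fold rests on a level that may be background. Gask1b and Inhbb were also below it in GNPs and both tumor groups, so they entered the test only through the NEP arrays.

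Among the genes lower in NEPs, the widest gap belonged to Cyp11a1, the side-chain cleavage enzyme of steroid synthesis. It had levels of 3.14, 2.92, 4.01 and 4.22 in NEPs, against 8.68, 8.71 and 8.64 in NSCs, a difference of -5.11 (SE 0.32, adjusted p = 5.07e-05). Mbnl3, a regulator of RNA splicing, had 2.48, 2.51, 3.44 and 3.25 in NEPs, against 7.68, 7.68 and 7.69 in NSCs. Sfrp1, a secreted Wnt antagonist found in the granule lineage, had 5.92, 5.99, 6.47 and 6.62 in NEPs, against 10.58, 10.54 and 10.52 in NSCs. The NSC arrays lay close together for each of these 3 genes, with the 4 NEP arrays far below them. Barhl1, a homeobox factor of granule neuron progenitors, fell by 5.29 on the log2 scale (SE 0.79, adjusted p = 0.00191), with 2.33, 2.31, 5.43 and 4.47 in NEPs, against 8.83, 9.01 and 8.93 in NSCs. Atoh1 fell by 4.98 (SE 0.79, adjusted p = 0.00255), with 2.85, 2.38, 5.67 and 4.90 in NEPs. For both factors, and by less for Cyp11a1, Mbnl3 and Sfrp1, NEP arrays 3 and 4 lay between NEP arrays 1 and 2 and the NSC arrays.

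The other 10 genes with the widest gaps downward were Kctd8, Tbata, Mfap4, Caln1, Dmrta1, Cadps2, Islr2, Kcns2, Sult4a1 and Mdga1. Kctd8 encodes an auxiliary subunit of GABA-B receptors, Cadps2 a protein of dense-core vesicle release, Kcns2 a modulatory potassium channel subunit and Mfap4 a microfibril protein. Over the 15 genes the difference ran between -5.29 and -3.79, and between -4.57 and -3.22 with NEP arrays 3 and 4 only. Kctd8, Dmrta1 and Kcns2 were below the array median in NEPs. The NSC level of these 15 genes minus their GNP level lay between -0.86 and 0.63, with a median of -0.04. For the 15 genes with the widest gaps upward, the same quantity lay between 0.07 and 3.80, with a median of 1.15. NSC and GNP arrays belong to different runs. No test was made of this, because the genes were picked by the NEP with NSC values.

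**Figure D3:**
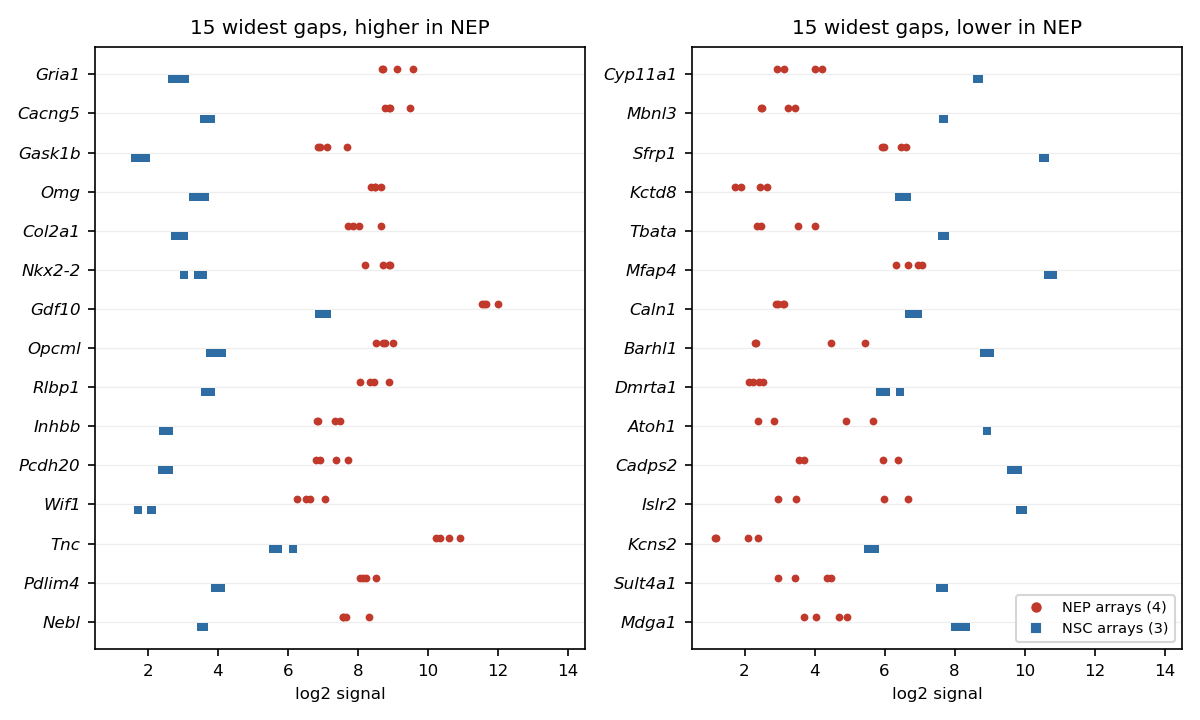
Log2 signal on each array for the 15 genes with the widest gap upward (left panel) and downward (right panel); red circles are the 4 NEP arrays and blue squares the 3 NSC arrays. The NSC arrays lie close together for each gene, and the NEP arrays fall into 2 clusters for Barhl1, Atoh1, Cadps2 and Islr2.

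Basic helix-loop-helix (bHLH) factors choose neural fates, Id proteins block them by binding their partners, and Hes and Hey proteins repress them downstream of Notch. Of 33 listed, 30 were tested, with 14 called higher and 7 lower in NEPs, against 24.9% and 22.4% of all genes. Id4 had levels of 10.32, 10.24, 10.30 and 10.57 in NEPs, against 6.69, 6.84 and 6.92 in NSCs, a difference of 3.54 (SE 0.11, adjusted p = 5.36e-06). Id3 was higher by 2.85 and Id1 by 2.03, while Id2 did not pass (-0.12, SE 0.10, adjusted p = 0.324). Id2 was thus apart from the other Id genes, with 9.78 to 10.01 in NEPs, against 9.92 to 10.14 in NSCs, though the mean of all its probe sets was higher in NEPs by 0.41 (adjusted p = 0.0114).

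Neurogenin genes were also higher. Neurog1 had 6.12, 6.43, 7.67 and 6.98 in NEPs, against 3.54, 3.26 and 3.83 in NSCs (difference 3.26, SE 0.36, adjusted p = 0.000576). Neurog2 had 7.76, 8.14, 8.28 and 8.33 in NEPs, against 5.16, 5.12 and 5.13 in NSCs (difference 2.99, SE 0.14, adjusted p = 1.61e-05). Ptf1a, which specifies cerebellar inhibitory neurons, stood at 9.99, 9.94, 10.14 and 10.51 in NEPs, against 7.80, 7.61 and 7.83 in NSCs, and at a mean of 2.07 in GNPs. The NSC arrays thus held both Ptf1a and Atoh1, genes of different germinal zones, far above the array median. Olig1 and Olig2, factors of oligodendrocyte precursors, were higher by 2.49 (SE 0.25) and 2.97 (SE 0.35). Myc was higher by 1.98 (SE 0.10, adjusted p = 1.76e-05), whereas Mycn, a Hedgehog target of granule progenitors, differed by -0.69 and was not called (SE 0.27, adjusted p = 0.0707).

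Atoh1, Neurod1, Nhlh1, Hey1, Olig3, Mycl and Tcf3 were the 7 called lower, with Olig3 below the array median in NEPs. Neurod1, a factor of differentiating granule neurons, had 7.96, 8.22, 10.94 and 10.32 in NEPs, against 12.12, 12.08 and 12.01 in NSCs (difference -2.71, SE 0.75, adjusted p = 0.0224). The call was lost without NSC array 1, 2 or 6, with differences of -2.69, -2.71 and -2.74. Nhlh1, a factor of early postmitotic granule neurons, fell by 2.60 (SE 0.55, adjusted p = 0.00771). Hey1 fell by 1.72 (SE 0.22, adjusted p = 0.00109), opposite in sign to the other Notch effectors Hes1 (2.42), Hes5 (2.90) and Hey2 (1.15), each called higher. The number of bHLH genes called lower was 4 without NSC array 1, 2 or 6, and with NEP arrays 3 and 4 only 15 were higher and 5 lower.

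**Figure D4:**
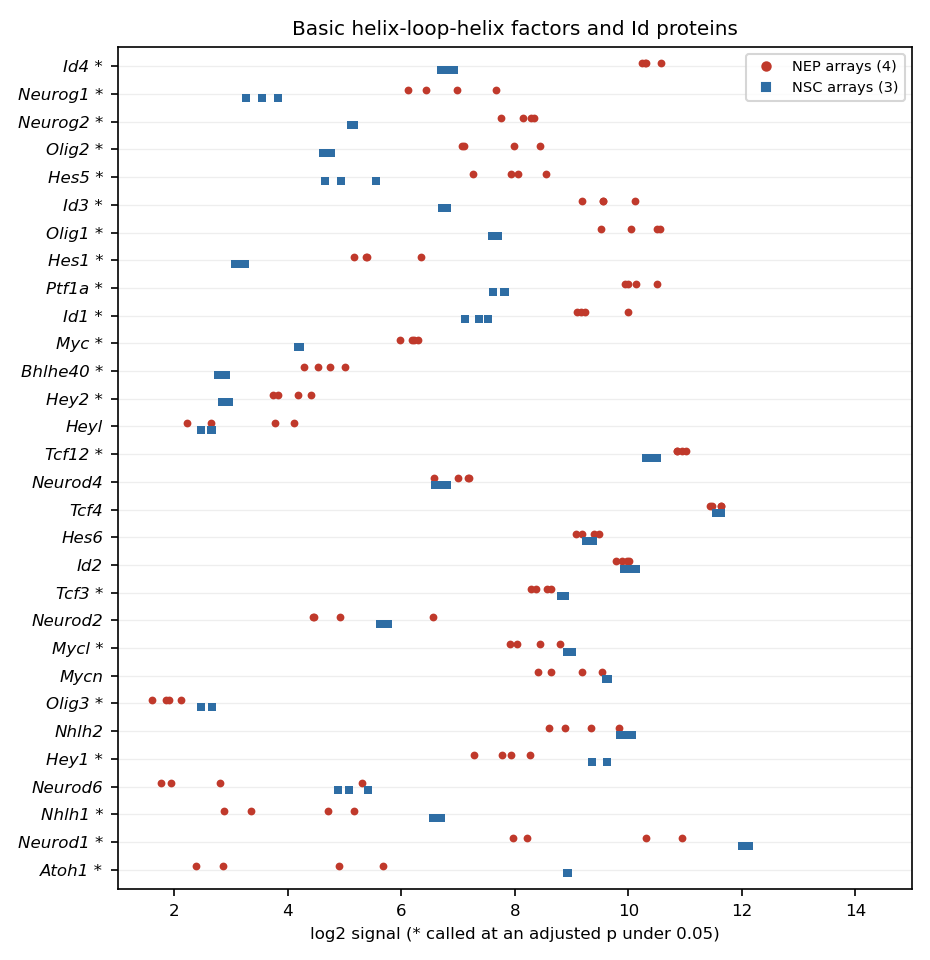
Log2 signal of 30 bHLH and Id genes on each array, ordered by the NEP minus NSC difference; red circles are NEP arrays, blue squares NSC arrays, and an asterisk marks a called gene. Id4 and the neurogenins stand at the top, Neurod1 and Atoh1 at the bottom, and the NEP arrays of Neurod1 and Atoh1 fall into 2 clusters.

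Bergmann glia and astrocyte genes were higher in NEPs in most cases. Of 30 listed, 28 were tested, with 23 called higher, each at least 2-fold, and 0 lower, against 24.9% and 22.4% of all genes. In 5 lists with called members in 1 direction (this list, GABA and glycine signalling, the granule lineage, DNA replication and ribosomal proteins), 0 members passed an unadjusted p below 0.05 in the other direction either (limma). The median difference was 2.06, against 0.017 over all genes, and the counts were 23 higher and 1 lower with NEP arrays 3 and 4 only. Aldh1l1, a folate enzyme used as an astrocyte marker, had 9.94, 10.07, 10.40 and 10.53 in NEPs, against 5.31, 5.73 and 6.00 in NSCs (difference 4.55, SE 0.21, adjusted p = 1.34e-05). Acsbg1, an acyl-CoA synthetase, was higher by 3.88 (SE 0.13) and S100b, a calcium-binding protein, by 3.65 (SE 0.31). These genes did not overlap between the groups. The list median lay at 9.59 to 9.81 on the NEP arrays, against 7.03 to 7.13 on the NSC arrays and 3.15 to 4.04 on the GNP arrays.

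Radial glia and neural stem cell genes gave 19 higher and 1 lower of 24 tested (26 listed), against 24.9% and 22.4% of all genes. The median was 1.74, and the counts were 18 and 1 with NEP arrays 3 and 4 only. Tnc, an extracellular matrix protein of stem cell niches, had 10.23, 10.34, 10.62 and 10.91 in NEPs, against 5.57, 6.15 and 5.71 in NSCs (difference 4.72, SE 0.21, adjusted p = 1.11e-05). Hopx, a homeodomain protein of radial glia, was higher by 3.92 (SE 0.18), Moxd1 by 3.96 (SE 0.16) and Ptprz1, a receptor phosphatase that binds tenascin C, by 3.08 (SE 0.14). Moxd1 had 7.46, 7.67, 7.54 and 7.50 in NEPs, against 3.32, 3.47 and 3.95 in NSCs. Pax6, which is also a granule lineage factor, was the gene called lower (-0.75, SE 0.22, adjusted p = 0.0279), and its call was lost without NEP array 1 or 2, or NSC array 1, 2 or 6.

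Oligodendrocyte lineage genes gave 9 higher and 1 lower of 16 tested (24 listed), against 24.9% and 22.4% of all genes. The median was 2.43, and this group moved with the split of the NEP arrays. Its array medians were 8.82, 8.67, 6.95 and 6.62 in NEPs, against 5.10, 5.12 and 5.02 in NSCs, and with NEP arrays 3 and 4 only the median was 1.21, with 10 higher and 4 lower. Without NSC array 1, 5 were called higher. Lhfpl3, expressed in oligodendrocyte precursors, was the steadiest of the examples, with 7.43, 7.98, 7.90 and 8.01 in NEPs, against 3.64, 3.33 and 3.35 in NSCs (difference 4.39, SE 0.17, adjusted p = 9.13e-06). Gpr17, a receptor of precursors about to myelinate, had 10.07, 9.83, 5.0 and 5.01 in NEPs, against 3.32, 3.13 and 3.16 in NSCs. Its call (difference 4.27, adjusted p = 0.0439) was lost without NEP array 1 (3.41) or 2 (3.49), without NSC array 1, 2 or 6, and with no filter on low values. C1ql1, a secreted C1q-like protein, was the member called lower, with 3.98, 4.08, 3.29 and 3.48 in NEPs, against 6.94, 7.31 and 6.99 in NSCs (difference -3.37, SE 0.22, adjusted p = 5.44e-05). C1ql1 was below every second-run array on every first-run array, GNPs included.

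Sox factors gave 10 higher and 2 lower of 16 tested, against 24.9% and 22.4% of all genes, with a median of 0.70. The counts were 10 and 3 with NEP arrays 3 and 4 only. Sox8 had 8.50, 8.16, 7.64 and 7.83 in NEPs, against 4.28, 4.15 and 3.98 in NSCs (difference 3.90, SE 0.21, adjusted p = 2.46e-05). Sox6 was higher by 3.29 (SE 0.12) and Sox21 by 2.33 (SE 0.39). Sox10, the oligodendrocyte factor, again split the NEP arrays, with 8.72, 8.35, 5.58 and 5.66 in NEPs, against 3.43, 3.70 and 3.63 in NSCs (difference 3.49, SE 0.85, adjusted p = 0.0139), and its call was lost without NSC array 1 (3.42). Sox12 and the endothelial factor Sox18 were lower, by 0.88 and 0.67 on the log2 scale.

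Homeobox and other fate factors gave 12 higher and 11 lower of 38 tested (52 listed), near the 24.9% and 22.4% of all genes, with a median of -0.21. Without NSC array 1, 2 or 6 the number lower was 6, 6 and 7, and with NEP arrays 3 and 4 only 14 were higher and 13 lower. Msx2, a target of BMP signalling, had 5.53, 5.71, 6.15 and 6.89 in NEPs, against 2.15, 2.29 and 2.25 in NSCs, and was called higher. Its mean was below the array median in NSCs, GNPs and both tumor groups, so it entered the test only through the NEP arrays and its difference rests on a level that may be background. Irx3, an Iroquois factor, was higher by 3.09 (SE 0.28, adjusted p = 0.00022). Otx1, a brain patterning factor, had 2.45, 2.26, 1.95 and 2.71 in NEPs, against 5.81, 5.74 and 5.95 in NSCs (difference -3.49, SE 0.18, adjusted p = 2.05e-05). Unlike Barhl1, Otx1 was low on each of the 4 NEP arrays, with a mean below the array median that may be background. Barhl2, a paralog of Barhl1, fell by 4.02 (SE 0.87, adjusted p = 0.00881). Uncx, another homeobox factor, had 2.51, 2.25, 7.34 and 6.75 in NEPs, against 9.60, 9.44 and 9.58 in NSCs, and its call (-4.83, adjusted p = 0.0236) was lost without NSC array 1, 2 or 6.

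Granule lineage genes gave 0 higher and 18 lower of 27 tested (31 listed), against 24.9% and 22.4% of all genes. The median was -1.26. The number lower was 11 without NSC array 1 or 2 and 19 with NEP arrays 3 and 4 only, where 1 was higher and the median was -0.97. Cadps2 had 3.71, 3.57, 5.97 and 6.38 in NEPs, against 9.80, 9.62 and 9.79 in NSCs (difference -4.83, SE 0.74, adjusted p = 0.00215). Islr2, a membrane protein of growing axons, had 2.95, 3.48, 6.67 and 5.99 in NEPs, against 9.92, 9.95 and 9.88 in NSCs (difference -5.14, SE 0.92, adjusted p = 0.00399). The array medians of the list were 3.71, 3.57, 6.81 and 6.62 in NEPs, against 8.94, 9.01 and 8.93 in NSCs, and 9.75 to 10.07 in GNPs. On NEP arrays 3 and 4 granule genes thus lay between the other NEP arrays and the NSC arrays.

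GABAergic lineage genes gave 7 higher and 3 lower of 13 tested (22 listed), against 24.9% and 22.4% of all genes, so the number lower was near the background. The median was 1.19, and the counts were 8 and 2 with NEP arrays 3 and 4 only. With no filter on low values 17 were tested, with 7 higher and 3 lower, and the median was 0.27. Tfap2b, a factor of inhibitory interneuron progenitors, had 8.94, 8.50, 9.33 and 9.28 in NEPs, against 5.86, 5.90 and 6.29 in NSCs (difference 3.00, SE 0.22, adjusted p = 9.83e-05). Tfap2a was higher by 2.52 (SE 0.27) and Lhx5, a LIM factor of the Purkinje lineage, by 2.89 (SE 0.67, adjusted p = 0.0117). Lhx1, its close relative, fell by 2.18 (SE 0.33, adjusted p = 0.00201), with 7.72, 7.76, 9.08 and 8.41 in NEPs, against 10.46, 10.42 and 10.39 in NSCs. The other calls lower were Foxp2 (-0.59), whose groups overlapped, and Pcp2 (-0.43). Both were lost without NSC array 6, leaving 1. Foxp2 was also lost without NEP array 1, 2 or 4, without NSC array 2, with group weights and with NEP arrays 3 and 4 only. Pcp2 was also lost without NSC array 1. The number higher was 6 without NEP array 3 or NSC array 1, and 5 without NSC array 2 or 6.

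Transmitter receptors differed subunit by subunit. Glutamate receptors and their auxiliary subunits gave 13 higher and 4 lower of 24 tested (32 listed), against 24.9% and 22.4% of all genes. The median was 0.69, and the counts were the same with NEP arrays 3 and 4 only. With no filter on low values 29 were tested, with 13 higher and 5 lower, and the median was 0.18. Besides Gria1 and Cacng5, Grm3, a metabotropic receptor of astrocytes, had 9.67, 9.65, 10.37 and 10.56 in NEPs, against 5.97, 6.30 and 6.02 in NSCs (difference 3.97, SE 0.25, adjusted p = 5.29e-05). Cacng4 was higher by 3.59 (SE 0.15). Cacng2, the stargazin gene needed for AMPA receptors of granule cells, had 4.19, 3.57, 6.45 and 5.55 in NEPs, against 8.21, 8.42 and 8.47 in NSCs (difference -3.43, SE 0.66, adjusted p = 0.00539). Auxiliary subunits of AMPA receptors therefore changed in opposite directions, Cacng4 and Cacng5 up and Cacng2 down. Grik2, a kainate receptor subunit, fell by 1.97 (SE 0.36). Cnih3 was called lower, with 1.63, 1.40, 1.46 and 1.34 in NEPs, against 2.50, 2.84 and 3.01 in NSCs. Its NEP mean was below the array median and its NSC level little above it, so the size of its difference may be set by background. Gria2, the subunit that makes AMPA receptors impermeable to calcium, had 8.03, 7.96, 8.15 and 8.36 in NEPs, against 8.21, 8.40 and 8.47 in NSCs, and was not called (-0.23, SE 0.12, adjusted p = 0.162). It was picked for mention after its values were seen.

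GABA and glycine signalling genes gave 8 higher and 0 lower of 13 tested (26 listed), against 24.9% and 22.4% of all genes. The median was 1.19, and the counts were 9 and 0 with NEP arrays 3 and 4 only. With no filter on low values 21 were tested, with 8 higher and 0 lower, and the median was 0.21. The median thus depended on leaving out members with low values. Gabrb1, a GABA-A receptor subunit, had 8.12, 8.05, 8.03 and 8.16 in NEPs, against 4.13, 4.21 and 4.53 in NSCs (difference 3.80, SE 0.11, adjusted p = 4.73e-06). Gabrg1, another subunit, was higher by 3.54 (SE 0.17). Slc6a9, the glial glycine transporter, was higher by 3.11 (SE 0.11) and Abat, which breaks down GABA, by 2.29 (SE 0.09). For Gabrb1, Slc6a9 and Abat the 4 NEP arrays lay close together, without the split seen in the microglia markers. Potassium channels went both ways, with 10 higher and 11 lower of 29 tested (48 listed), against 24.9% and 22.4% of all genes. The median was 0.21, and the counts were 11 and 11 with a median of 0.08 on NEP arrays 3 and 4 only. Kcnn2, a calcium-activated channel, was higher by 3.60 (SE 0.14, adjusted p = 9.29e-06) and Kcnj10, the glial inward rectifier, by 2.68 (SE 0.13), while Kcnj3 fell by 2.41 (SE 0.52, adjusted p = 0.00859).

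Differentiating neuron genes gave 5 higher and 11 lower of 26 tested (28 listed), against 24.9% and 22.4% of all genes. The median was -1.24, and the counts were 6 and 11 with a median of -0.67 on NEP arrays 3 and 4 only. The number lower was 7 without NSC array 1 or 2 and 18 without NEP array 3. Rbfox3, the nuclear protein NeuN, had 7.0, 7.01, 8.43 and 8.13 in NEPs, against 9.95, 10.10 and 10.31 in NSCs (difference -2.48, SE 0.39, adjusted p = 0.00234). Nefl, the light neurofilament, fell by 2.11 (SE 0.46) and Ina by 2.84 (SE 0.68). Cntn1, the axonal adhesion molecule contactin 1, was higher, with 9.63, 9.64, 9.90 and 10.01 in NEPs, against 7.82, 7.74 and 7.68 in NSCs (difference 2.05, SE 0.12, adjusted p = 3.47e-05). Cntn1 was above every second-run array on every first-run array, with means of 8.76 in GNPs and 6.45 and 6.50 in the tumor groups. It thus followed the runs, which cannot be told apart from group here. Mapt was higher by 1.09 (SE 0.12). Axon guidance genes gave 19 higher and 13 lower of 54 tested (61 listed), against 24.9% and 22.4% of all genes, with a median of 0.14, and 20 and 16 with a median of -0.01 on NEP arrays 3 and 4 only. Sema5b was higher by 3.5 (SE 0.20), Rgma by 3.28 (SE 0.20) and Epha4 by 2.83 (SE 0.23), while Ntn1, the chemoattractant netrin 1, fell by 2.70 (SE 0.35, adjusted p = 0.00104).

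Signalling pathways differed member by member. In the Notch pathway, ligands on one cell activate receptors on its neighbour, which then turn on Hes and Hey genes. Of 29 genes tested (32 listed), 12 were higher and 3 lower, against 24.9% and 22.4% of all genes, with a median of 0.33. The counts were the same with NEP arrays 3 and 4 only. Dll1, a ligand, had 7.25, 7.28, 7.51 and 7.81 in NEPs, against 3.46, 3.62 and 3.63 in NSCs (difference 3.89, SE 0.15, adjusted p = 9.29e-06). Notch3, a receptor that mural cells also carry, had 7.94, 8.43, 7.98 and 8.49 in NEPs, against 4.32, 5.44 and 4.72 in NSCs (difference 3.38, SE 0.28, adjusted p = 0.000155). Notch3 did not follow the mural markers, since it was as high on NEP arrays 3 and 4 as on arrays 1 and 2. Hes5, a target, had 7.26, 7.93, 8.06 and 8.55 in NEPs, against 5.55, 4.66 and 4.93 in NSCs. Numbl, which antagonises Notch, fell by 2.16 (SE 0.17, adjusted p = 0.000139).

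BMP and TGF-beta genes gave 17 higher and 5 lower of 41 tested (47 listed), against 24.9% and 22.4% of all genes. The median was 0.50, and the counts were 19 and 8 with NEP arrays 3 and 4 only. The lower count was 3 without NEP array 1, 2 without NEP array 2, and 2, 2 and 3 without NSC array 1, 2 and 6. Apart from Gdf10, Msx2 and the Id genes, Chrd, the secreted BMP antagonist chordin, had 3.67, 3.43, 3.16 and 3.84 in NEPs, against 6.27, 6.46 and 6.51 in NSCs (difference -2.89, SE 0.17, adjusted p = 3.59e-05). Wnt genes gave 16 higher and 6 lower of 42 tested (52 listed), against 24.9% and 22.4% of all genes. The median was 0.20, and the counts were 18 and 9 with a median of 0.10 on NEP arrays 3 and 4 only. Secreted Wnt inhibitors were called in both directions. Wif1, below the array median in NSCs, was higher by 4.64 (SE 0.20), while Sfrp1 fell by 4.30 (SE 0.18). Dkk3, another member of the list, was higher by 3.43 (SE 0.14). The receptors Fzd9 and Fzd7 also went opposite ways, with differences of 2.75 (SE 0.11) and -1.70 (SE 0.14).

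Hedgehog pathway genes gave 7 higher and 7 lower of 21 tested (23 listed), against 24.9% and 22.4% of all genes. The median was -0.32, and the counts were 8 and 7 with NEP arrays 3 and 4 only. The number higher was 4 without NEP array 1 or NSC array 1, and 3 with the mean of all probe sets of a gene. Ptch1, the receptor and a target, had 10.27, 10.33, 10.58 and 10.90 in NEPs, against 10.29, 10.24 and 10.25 in NSCs, and was not called (0.26, SE 0.16, adjusted p = 0.214), but was called higher with NEP arrays 3 and 4 only (0.48, adjusted p = 0.0155). Gli1, the transcription factor most directly induced by the pathway, had 6.93, 6.44, 6.78 and 8.10 in NEPs, against 7.60, 8.21 and 8.14 in NSCs, and was not called either (-0.92, SE 0.39, adjusted p = 0.0913). It was called lower without NEP array 4 (-1.27), with NEP arrays 1 and 2 only (-1.30, adjusted p = 0.00122) and with all 19 arrays in the fit, and not with NEP arrays 3 and 4 only (-0.54, adjusted p = 0.289). Both genes overlapped between the groups. Hhip, a membrane protein that binds Hedgehog, was higher, with 7.92, 7.72, 8.15 and 8.49 in NEPs, against 4.33, 4.10 and 4.66 in NSCs (difference 3.71, SE 0.21, adjusted p = 3.18e-05). Boc, a co-receptor, fell by 1.75 (SE 0.23), Gli2, an activator, by 1.32 (SE 0.19), and Ccnd1, cyclin D1, by 1.40 (SE 0.09, adjusted p = 5.19e-05).

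Growth factors and their receptors gave 16 higher and 6 lower of 38 tested (48 listed), against 24.9% and 22.4% of all genes. The counts were 16 and 12 with NEP arrays 3 and 4 only. Fgfr2, a receptor for fibroblast growth factors, had 7.55, 7.43, 7.55 and 7.98 in NEPs, against 3.59, 3.64 and 3.61 in NSCs (difference 4.01, SE 0.14, adjusted p = 7.55e-06). Targets of this signalling were higher as well, Etv5 by 2.99 (SE 0.11), Etv4 by 2.60 (SE 0.11) and Spry1 by 2.65 (SE 0.24). The ligand Fgf9, in contrast, fell by 2.87 (SE 0.19), with 3.11, 3.14, 3.71 and 3.64 in NEPs, against 6.13, 6.47 and 6.21 in NSCs. Igfbp5, which binds insulin-like growth factors, fell by 2.58 (SE 0.19), and Ngfr, the low-affinity neurotrophin receptor, by 2.41 (SE 0.25).

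Matrix and adhesion genes gave 27 higher and 1 lower of 47 tested (54 listed), against 24.9% and 22.4% of all genes. The median was 1.23, or 0.83 with no filter on low values. The counts were 31 and 6 with a median of 0.88 on NEP arrays 3 and 4 only. Without NSC array 1 or 6 the number lower was 0, and it was 2 without NEP array 2 or 4 and 3 without NEP array 3. Array medians were 8.46, 8.58, 7.66 and 7.88 in NEPs, against 6.90, 6.87 and 6.82 in NSCs, so that NEP arrays 1 and 2, high in fibroblast markers, were the higher ones. Cspg5, the proteoglycan neuroglycan C, had 7.55, 7.43, 7.86 and 8.05 in NEPs, against 3.92, 3.67 and 3.72 in NSCs (difference 3.95, SE 0.17, adjusted p = 1.06e-05). Chl1, a close homolog of the adhesion molecule L1, was higher by 2.97 (SE 0.09). Together with Tnc and Ptprz1, these 4 examples were as high on NEP arrays 3 and 4 as on arrays 1 and 2 or higher.

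**Figure D5:**
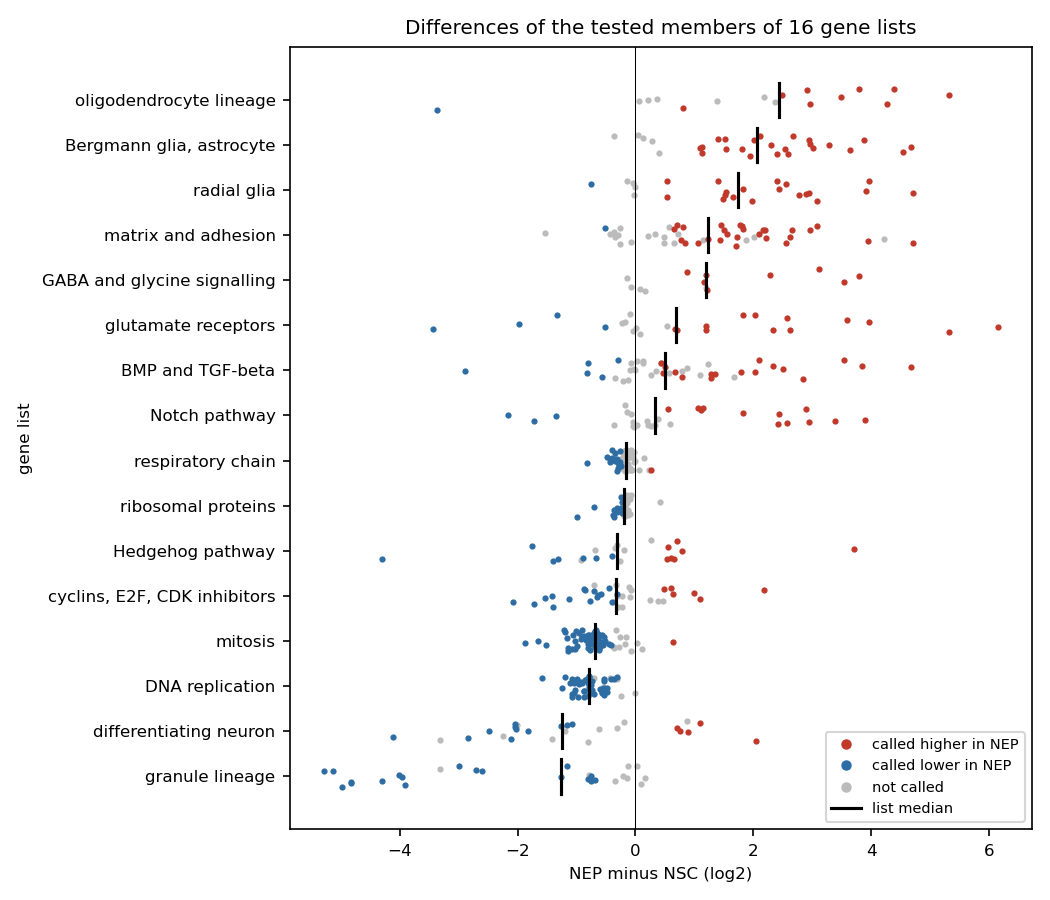
Difference (NEP minus NSC, log2) of each tested member of 16 gene lists, with lists ordered by their median (black bar); red and blue points were called higher and lower in NEPs, and grey points were not called. DNA replication and mitosis genes cluster at small negative differences, with medians of -0.78 and -0.68, whereas granule lineage genes spread down to -5.29 and glial lists up to 5.33.

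Cell cycle genes were lower in NEPs by modest amounts and in most cases. DNA replication genes gave 0 higher and 47 lower of 54 tested (56 listed), against 22.4% of all genes called lower, with a median of -0.78. Mitosis genes gave 1 higher (Cdc25b) and 55 lower of 68 tested (71 listed), with a median of -0.68. With NEP arrays 3 and 4 only, 44 and 47 were lower, with medians of -0.56 and -0.49. Without NSC array 1 the mitosis count was 35. Array medians of replication genes were 7.58, 7.45, 8.03 and 7.92 in NEPs, against 8.57, 8.52 and 8.57 in NSCs, and 8.52 to 8.63 in GNPs. Chaf1b, a subunit of the chromatin assembly factor, had 6.04, 5.91, 6.69 and 6.38 in NEPs, against 7.70, 7.96 and 7.88 in NSCs (difference -1.59, SE 0.19, adjusted p = 0.000827). Sgo1, which guards centromeric cohesion, had 6.34, 5.94, 7.14 and 6.89 in NEPs, against 8.49, 8.36 and 8.49 in NSCs (difference -1.87, SE 0.28, adjusted p = 0.00194). Tk1, thymidine kinase, fell by 1.25 (SE 0.15) and Ndc80, a kinetochore protein, by 1.66 (SE 0.21).

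Promoter sequence, which the comparison did not use, is shown for these lists because many of their members fell together. E2F factors switch on replication genes through short GC-rich elements, and the cell cycle homology region (CHR) is an element of mitotic genes. The RefSeq promoter table (mouse build GRCm38.p6) was searched over the 250 bases before each gene's start, on both strands, for the E2F letters TTTCCCGC, TTTGGCGC, TTTCGCGC or TTTGCCGC and for the CHR letters TTTGAA. No motif searched contains another. Windows were found for 45 of the 54 replication genes and 58 of the 68 mitosis genes, and for 9819 of all 12148 genes tested. E2F letters were present in 10 of the 45 replication windows (22.2%), against 394 of all windows (4.01%). CHR letters were present in 22 of the 58 mitosis windows (37.9%), against 1221 of all windows (12.4%). Over all genes called lower, E2F letters were present in 6.3% of windows and CHR letters in 14.7%. The lists are of cell cycle genes, for which these elements are known, so the list shares say nothing of the fall in NEPs. All these shares describe letters and not binding, and any part of the elements in the differences was not tested. The 6 windows shown are those of the genes with the largest difference among called-lower members with a match, 3 for each element, picked after their values were seen. Capitals mark the match, and each window runs 5′ to 3′ on the gene's strand, which is the minus strand for Rfc3 and the plus strand for the other 5.
Cdc6: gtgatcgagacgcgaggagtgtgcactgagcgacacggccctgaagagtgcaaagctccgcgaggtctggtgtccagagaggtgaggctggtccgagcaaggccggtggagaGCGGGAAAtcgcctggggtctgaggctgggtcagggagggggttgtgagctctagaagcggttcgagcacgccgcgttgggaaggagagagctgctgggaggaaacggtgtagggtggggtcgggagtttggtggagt
Uhrf1: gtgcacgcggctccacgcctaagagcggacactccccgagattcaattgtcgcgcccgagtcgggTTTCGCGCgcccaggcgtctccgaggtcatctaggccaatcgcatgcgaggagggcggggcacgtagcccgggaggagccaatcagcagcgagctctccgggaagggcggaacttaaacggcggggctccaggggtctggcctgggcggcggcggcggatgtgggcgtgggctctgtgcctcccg
Rfc3: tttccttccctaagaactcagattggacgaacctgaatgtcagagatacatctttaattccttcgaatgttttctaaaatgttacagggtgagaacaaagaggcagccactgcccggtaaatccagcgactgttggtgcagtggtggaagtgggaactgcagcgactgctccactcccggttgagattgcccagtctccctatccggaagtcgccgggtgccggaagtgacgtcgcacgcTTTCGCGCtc
Espl1: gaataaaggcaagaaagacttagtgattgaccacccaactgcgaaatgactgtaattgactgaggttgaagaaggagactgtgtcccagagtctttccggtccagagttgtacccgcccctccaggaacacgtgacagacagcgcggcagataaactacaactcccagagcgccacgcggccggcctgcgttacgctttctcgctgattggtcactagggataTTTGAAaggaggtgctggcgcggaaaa
Kif11: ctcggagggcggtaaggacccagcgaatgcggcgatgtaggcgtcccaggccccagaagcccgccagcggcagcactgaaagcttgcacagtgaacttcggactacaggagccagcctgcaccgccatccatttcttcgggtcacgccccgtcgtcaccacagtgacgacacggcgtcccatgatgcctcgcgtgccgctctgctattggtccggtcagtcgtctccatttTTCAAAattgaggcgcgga
Ube2c: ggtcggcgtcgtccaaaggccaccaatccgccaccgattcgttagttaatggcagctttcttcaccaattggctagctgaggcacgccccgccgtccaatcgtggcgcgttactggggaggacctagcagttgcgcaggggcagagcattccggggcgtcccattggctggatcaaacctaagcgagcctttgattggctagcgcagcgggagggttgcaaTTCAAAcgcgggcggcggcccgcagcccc

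The windows lie at chr11:98907901-98908150, chr17:56304063-56304312, chr5:151651209-151651458, chr15:102296043-102296292, chr19:37376132-37376381 and chr2:164769679-164769928, in the order printed. In the E2F windows the match began 138 bases before the start of Cdc6, a loader of the replicative helicase, 185 before that of Uhrf1, which maintains DNA methylation, and 10 before that of Rfc3, a clamp loader subunit. In the CHR windows the match began 27 bases before the start of Espl1, the cohesin-cleaving separase, 19 before that of Kif11, a spindle motor, and 29 before that of Ube2c, a ubiquitin-conjugating enzyme of mitotic exit. Cdc6 had levels of 6.48, 6.39, 6.92 and 7.09 in NEPs, against 7.71, 7.62 and 7.74 in NSCs (difference -0.97, SE 0.18, adjusted p = 0.00503). Uhrf1 fell by 0.90 (SE 0.15) and Rfc3 by 0.86 (SE 0.21). Kif11 had 7.92, 8.15, 8.65 and 8.28 in NEPs, against 9.36, 9.39 and 9.25 in NSCs (difference -1.08, SE 0.17, adjusted p = 0.00239). Espl1 fell by 1.17 (SE 0.12) and Ube2c by 1.03 (SE 0.18). For each of the 6 the NEP arrays lay below the NSC arrays, as for 27.2% of all genes.

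Cyclins, E2F factors and cell cycle inhibitors gave 6 higher and 16 lower of 35 tested, against 24.9% and 22.4% of all genes. The number higher was thus not above that background. The median was -0.33, and the counts were 7 and 17 with NEP arrays 3 and 4 only. E2f2, an activating E2F, had 4.71, 4.77, 5.14 and 5.24 in NEPs, against 7.05, 7.08 and 7.0 in NSCs (difference -2.08, SE 0.15, adjusted p = 8.1e-05). E2f1 fell by 1.72 (SE 0.16), E2f7 by 1.53 (SE 0.22) and Cdk6, a partner of D cyclins, by 1.41 (SE 0.17). The members called higher included inhibitors of proliferation, Gadd45g by 2.18 (SE 0.10, adjusted p = 1.25e-05), Btg2 by 1.10 (SE 0.15) and Cdkn1c, the inhibitor p57, by 1.0 (SE 0.15). E2f5 was also called higher, by 0.63 (SE 0.18), and its call was lost without NEP array 2 or 4, or NSC array 1, 2 or 6. Cdkn1c had 7.56, 7.52, 7.77 and 8.0 in NEPs, against 6.50, 6.77 and 6.86 in NSCs.

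Cholesterol and lipid synthesis genes gave 14 higher and 4 lower of 29 tested (34 listed), against 24.9% and 22.4% of all genes. The median was 0.39. Scd1, a fatty acid desaturase, led them, with 7.91, 7.75, 7.94 and 7.19 in NEPs, against 4.96, 5.01 and 5.10 in NSCs (difference 2.68, SE 0.19, adjusted p = 7.82e-05). The number lower was 2 without NSC array 6, and with NEP arrays 3 and 4 only 18 were higher and 5 lower, with a median of 0.49. Glycolysis and hypoxia genes gave 11 higher and 1 lower of 27 tested (33 listed), against 24.9% and 22.4% of all genes. The median was 0.37, and the counts were 11 and 5 with a median of 0.15 on NEP arrays 3 and 4 only. The call lower was lost without NSC array 1 or 2. Aldoc, the aldolase of astrocytes and some Purkinje cells, was higher by 2.59 (SE 0.15), and Pfkfb3, a regulator of glycolysis, by 2.45 (SE 0.21). Ribosomal protein genes gave 0 higher and 11 lower of 33 tested (52 listed), against 24.9% and 22.4% of all genes. The median was -0.19. The number lower was 6, 7 and 7 without NEP array 1, 3 and 4. Without NSC array 1, 2 and 6 it was 4, 3 and 5. With NEP arrays 3 and 4 only it was 11, with a median of -0.23. Respiratory chain genes gave 1 higher and 18 lower of 53 tested (57 listed), against 24.9% and 22.4% of all genes. The median was -0.16, and 11, 10 and 11 were lower without NSC array 1, 2 and 6. The 1 call higher was lost without NEP array 1 or 4, or NSC array 1, 2 or 6, and with NEP arrays 3 and 4 only 1 was higher and 16 lower, with a median of -0.19. Primary cilium genes gave 5 higher and 2 lower of 33 tested (39 listed), against 24.9% and 22.4% of all genes, with a median of -0.01. The number lower was 6 without NEP array 4, 1 without NSC array 1, 2 or 6, and 7 (with 8 higher) with all 19 arrays in the fit. With NEP arrays 3 and 4 only 7 were higher and 3 lower, with a median of 0.17.

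Immediate early and stress genes, which cell dissociation can induce, gave 9 higher and 5 lower of 30 tested. These are near the 24.9% and 22.4% of all genes. With NEP arrays 3 and 4 only the counts were 9 and 6. Hspa1b, a heat shock protein gene with a near-identical neighbour, Hspa1a, that its probes may also read, had 8.66, 9.19, 6.88 and 6.67 in NEPs, against 4.20, 4.49 and 4.39 in NSCs (difference 3.49, SE 0.64, adjusted p = 0.00437). Nr4a2, an orphan nuclear receptor, fell by 2.21 (SE 0.25) and Egr2 by 1.53 (SE 0.21). Array medians of the list were 7.37, 7.36, 5.93 and 6.22 in NEPs, against 5.68, 5.53 and 5.53 in NSCs, so that stress genes were higher on the arrays high in microglia markers. Ependymal and choroid plexus genes gave 6 higher and 1 lower of 17 tested (20 listed), against 24.9% and 22.4% of all genes. The counts were 7 and 3 with NEP arrays 3 and 4 only. The number higher was 0, 2 and 0 without NSC array 1, 2 and 6. The 1 call lower was lost without NEP array 2 or any 1 NSC array, and the number lower was 3 without NEP array 3 and 2 without NEP array 4.

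The GNP arrays, from the same run as the NEP arrays, give the nearest values without a change of run. In that comparison (limma on 4 NEP and 4 GNP arrays) 25.5% of genes were called higher and 34.6% lower in NEPs. It shares the NEP arrays with the NEP with NSC comparison, so the values are set side by side. The median NEP minus GNP difference was 4.75 for Bergmann glia genes and 3.23 for radial glia genes, beside NEP minus NSC medians of 2.06 and 1.74. For granule lineage genes it was -2.0 beside -1.26, for DNA replication genes -0.79 beside -0.78, and for mitosis genes -0.78 beside -0.68. Gdf10 was higher by 7.71 and Id4 by 7.20 over GNPs, beside 4.67 and 3.54 over NSCs. Atoh1 was lower by 4.90 and Barhl1 by 5.12 on the log2 scale, beside 4.98 and 5.29.

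Control probe sets marked the change of run. Poly-A spike-ins, RNAs added before labelling, averaged 7.97 ± 0.245 in NEPs and 5.90 ± 0.139 in NSCs (SD, n = 4 and 3), with 7.96 in GNPs and 5.94 and 6.28 in the tumor groups. Hybridisation spike-ins averaged 9.49 in NEPs and 9.44 in NSCs. The 3′ minus 5′ signal of actin, which moves with RNA integrity, was 0.55 in NEPs and 0.65 in NSCs. Of the 12148 genes tested, 265 were higher on all 8 first-run arrays than on all 11 second-run arrays and 126 lower. These hold 232 of the 3024 genes called higher in NEPs (7.67%) and 113 of the 2725 called lower (4.15%). Genes that separate the runs also separate NEP from NSC arrays, so this overlap is partly built in. A run difference need not separate every group, so these shares set no upper limit on the part of run. That part was not tested.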

How the data were processed

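Gene expression was measured on Affymetrix whole-genome mouse arrays. Per the submitters' processing notes, the authors summarised each probe set with RMA in Affymetrix Expression Console, and the deposited values are read here as log2 signal. No source states the log base. Between the bioB and cre hybridisation spike-ins the 7 arrays spanned 5.29 to 5.66, where their concentrations give 6.06 on a log2, 4.20 on a natural log and 1.82 on a log10 scale. Depth does not apply to arrays, and the number of arrays limits the precision.

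Of 45037 probe sets other than controls, 34945 had 1 gene symbol, 932 several and 9160 none in the platform annotation, and 34741 matched a gene ID. Each of 18193 genes was represented by the probe set whose 19-array mean was highest, and 12148 genes at or above the array median on at least 3 arrays were tested. limma 3.58.1 (R 4.3.3) was fitted to the 7 NEP and NSC arrays alone, since the spread differs between groups, with lmFit and eBayes. The fit was also run on simulated data with independent noise and the same SD in both groups. Those data had neither the larger NEP spread nor the NEP pairs, so they cannot show how calls behave under these. An exact permutation test of 4 against 3 arrays has 35 arrangements and cannot go below p = 0.0571 (two-sided), so none is given. Alternatives were all 19 arrays, group weights, a variance trend, the mean of all probe sets, 3 other filters, a second quantile normalization, each array left out, and either pair of NEP arrays. No pair of arrays held identical values.

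The gene lists and the comparison were chosen with earlier results of these data known. Named genes are the 15 with the widest gap between groups in each direction, up to 4 called genes per list and direction with the largest difference, the bHLH genes, and Nes, Prom1, Atoh1, Gria1, Nkx2-2, Gdf10, Gli1 and Ptch1. Csf1r, Dcn, Gria2, the promoter examples and the genes of the closing section that fall outside this rule were chosen after their values were seen.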

Additional observations from a re-analysis of the deposited data

Results flagged for a closer look

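Among 259 sets of 4 NEP values examined (named genes and list medians), 4 (1.54%) had 1 array whose gap to the nearest other array, over the whole range, passed Dixon's critical value for 4 samples. Chance alone marks about 1 in 20 such sets. Nebl, which encodes the actin-binding protein nebulette, stood at 8.31 on NEP array 4, against 7.57 to 7.68 on the other NEP arrays. Id1 stood at 9.99 on NEP array 4, against 9.10 to 9.23. Gabrg1 stood at 6.21 on NEP array 1, against 6.77 to 6.81. Rpl37, a ribosomal protein gene, stood at 8.33 on NEP array 2, against 8.01 to 8.06.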

How the results depend on the processing

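No paired analysis was possible because the NEP and NSC arrays share no replicate numbers that mark a common source. Over the 17 alternatives, 213 of 224 tested named genes were called at first, 171 of them kept the call under each alternative that tested them, 42 lost it under at least 1, and 0 called genes changed sign. The number called was between 4014 and 6266 with 1 array left out, with 2239 to 3237 higher and 1775 to 3029 lower. The lowest, 1775 lower, came without NSC array 2. By at least 2-fold, 1169 to 1441 were higher and 539 to 759 lower. With the filter at the 75th percentile, which tests fewer genes, 819 were at least 2-fold higher. The share of calls that were higher was 46.4% when probe sets of a gene were averaged and 45.9% with that filter, against 52.6%. A change of sign was seen in uncalled genes, and its cause was not tested: Ptch1 (-0.16) and Id2 (0.41) with the mean of all probe sets, Hes6 (0.03) and Tcf4 (0.10) after a second quantile normalization, Neurod2 (0.04), Hes6 (0.13), Heyl (-0.16) and Tcf4 (0.06) with NEP arrays 3 and 4 only, and Hes6 (-0.11 to 0.04) and Tcf4 (-0.05 to 0.01) with 1 array left out. Among list counts, the filter at the 75th percentile left 8 higher and 2 lower glutamate receptor genes, 5 and 5 potassium channels, 6 higher Sox genes, 4 higher GABAergic lineage genes, 1 higher cilium gene and 0 higher ependymal genes. Ribosomal protein genes called lower numbered 21 with all 19 arrays, 22 with a variance trend and 5 after a second quantile normalization, and hedgehog and differentiating neuron genes called lower 11 and 17 with all 19 arrays.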

Other observations

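The genes below were picked after their values were seen and are given as values. Malat1, a nuclear long non-coding RNA, had levels of 6.85, 6.66, 6.71 and 7.63 in NEPs, against 10.34, 10.23 and 10.64 in NSCs (difference -3.44, SE 0.25, adjusted p = 8.79e-05, limma). Its mean was 6.08 in GNPs, of the same run as the NEPs, and 10.28 and 10.20 in the tumor groups, of the same run as the NSCs. Malat1 thus followed the runs across all 5 groups, and in the NEP with NSC comparison run and group cannot be told apart.

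S100a8, a calcium-binding protein of neutrophils, stood at 5.56, 5.48, 2.09 and 2.43 in NEPs, against 7.49, 7.48 and 6.58 in NSCs (difference -3.30, adjusted p = 0.028, limma), with a mean of 1.75 in GNPs. Ngp, a neutrophil granule protein, stood at 2.10, 2.21, 1.37 and 1.56 in NEPs, against 4.17, 3.17 and 3.27 in NSCs (difference -1.73, adjusted p = 0.00415, limma). The NEP mean of Ngp was below the array median, so the size of its difference may be set by background.

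Of 9 listed genes on the sex chromosomes, 7 were tested, with 3 higher and 3 lower in NEPs, against 24.9% and 22.4% of all genes. The number lower was 1, 0 and 1 without NSC array 1, 2 and 6, and 2 without NEP array 1 or 2. With NEP arrays 3 and 4 only, 3 were higher and 2 lower. Kdm5d, on the Y chromosome, had 5.40, 5.93, 5.21 and 5.43 in NEPs, against 2.50, 2.18 and 1.93 in NSCs, and a mean of 5.53 in GNPs. Its NSC mean was below the array median. Eif2s3y, also on the Y chromosome, had 6.64, 6.88, 5.93 and 6.4 in NEPs, against 4.54, 4.88 and 4.77 in NSCs. Xist, the RNA that silences an X chromosome in females, had 9.73, 9.67, 10.16 and 10.42 in NEPs, against 10.64, 10.69 and 10.72 in NSCs. Its difference of -0.69 (adjusted p = 0.0224, limma) was not called without NSC array 1, 2 or 6. Both Xist and Y-linked genes were thus above the array median on the 4 NEP arrays. On the NSC arrays Xist and Eif2s3y were above it as well, so this did not set the NEP arrays apart. Eif2s3y had means of 6.90 in GNPs, 1.46 in NEP tumors and 7.57 in GNP tumors. The part of sex in the other differences was not tested.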
